A study of Caenorhabditis elegans with 2 samples.

Results

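The genes lin-29, mab-10, lin-41, lep-2 and lep-5 of the nematode Caenorhabditis elegans were examined for binding of LIN-29, the transcription factor that lin-29 itself encodes. The 5 genes were chosen by name out of 46926 annotated genes, as LIN-29's own gene, the gene of its cofactor and 3 genes that act before it. A LIN-29 ChIP peak was assigned to a gene when its summit, the point of highest signal, lay between 2000 bp upstream of the gene's 5′ end and its 3′ end. The 5 windows held 38 of the 54915 candidate peak regions in the pooled data. A pooled list of 856 regions that passed the authors' reproducibility threshold placed 1 of its regions in these windows, in the 3′ UTR of lin-29, and a second list with the same threshold placed a region at 3 of the 5 genes, namely lin-29, lin-41 and lep-5.

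In ChIP-seq, DNA bound by a protein is precipitated with an antibody and sequenced, and places where reads pile up are called as peaks. There was 1 group of 2 biological replicates. Both were whole L4 larvae, the last larval stage, collected at 49 hours after synchronisation by bleaching and starvation at the L1 stage. Their strain, RW12227, carries the CRISPR insertion st12227, which adds TY1, EGFP and 3xFLAG tags to lin-29 at its own locus on chromosome II, and the precipitation used an antibody against GFP. Where in lin-29 the tags were inserted is not given in the sources used here, and neither an untagged strain nor an input library was analysed. Sex was not collected. In whole larvae, strong binding in a few cells and weaker binding in many cannot be told apart.

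Developmental timing in C. elegans is set by the heterochronic pathway, a chain of regulators that each hold back or release the next until LIN-29, a zinc finger protein, appears late in larval life and drives the epidermis into its adult state. MAB-10, a protein of the NAB cofactor family, binds LIN-29 and acts with it, for instance in ending the larval moults. LIN-41, an RNA-binding TRIM-NHL protein, represses the mRNAs of lin-29 and mab-10 until the microRNA let-7 lowers LIN-41 itself. LEP-2, a Makorin protein, and lep-5, a long non-coding RNA, act further up by lowering LIN-28, which blocks let-7, and both are known from the timing of male tail tip shaping.

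Sequences are given here at the centre of most of the candidates on which the results turn, though not at the one upstream of lin-41. That of a neighbouring site at lep-5 is added. The candidates were picked by an IDR, a measure of reproducibility explained below, of 0.1 or below in a series-wide list, and not by signal. Candidates of mab-10 in intron 8 (pooled signal 46.3) and 733 bp in (40.3) exceeded its upstream one (35.0). They had IDRs above 0.1 and are not shown. Each line is the plus strand of assembly WBcel235 (ce11), taken from RefSeq, 30 bases around the summit. Capitals mark a match to the 6-mer ACGCAG, read on either strand. That 6-mer, and GAGAGA, led a list of enriched words in an earlier reading of these same data, and runs of AAAAAA were counted beside them. Lower case throughout means that none of the 3 words lies within the 30 bases.
lin-29 3′ UTR, chrII:11917818-11917847: aaatgttggaaagggcaaccgggtggatgg
lin-29 intron 4, 6271 bp into the gene, chrII:11929058-11929087: aggggcgaaaagtgcgtgtttcttgtctgt
lin-29 intron 4, 12483 bp into the gene, chrII:11922846-11922875: tgccccccaaacaacaattcgcaacatgtg
mab-10 intron 1, chrII:10529510-10529539: tcccggtccgtcccgcgtccgaacgaccga
mab-10 upstream, chrII:10527684-10527713: gcaacactgccgtcgcccccaggcagtgcc
lep-2 upstream, chrIV:991501-991530: aggactaaaggtgccccccgtctattaatt
lep-5 upstream, inside the window, chrX:12655343-12655372: aaatctCTGCGTttcgcattctcgcgccat
lep-5 upstream, outside the window, chrX:12656816-12656845: atcgcacgaacgctaggacaccgcacggca

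In words, the lep-5 line inside the window carries ACGCAG on the minus strand with its centre 5 bp to the left of the summit, and the other lines carry none of the 3 words. Both mab-10 stretches are rich in GC, with 55.4% within 50 bp of the summit in intron 1 and 57.4% upstream. The lep-5 site outside the window had 65.3%. A match is a description of letters and says nothing about which factor sat there.

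The deposited lists differ in what they rank and how strictly they were thresholded. Each of the 4 ranked lists (replicate 1, replicate 2, and 2 series-wide lists here called pooled and conservative after the thresholded lists they contain) gives every candidate with the authors' signal and an irreproducible discovery rate (IDR), which is small where the order of a peak repeats between the inputs compared. The authors' thresholded lists kept candidates with a score of 830 or more, which equals an IDR of 0.01. Those kept regions are called sites. After overlapping peaks were merged there were 41736 candidates and 528 sites in replicate 1, 43151 and 381 in replicate 2, 54915 and 856 in the pooled lists, and 55003 and 802 in the conservative lists. The scaling of the signal is not stated, so signals were compared within a list only and replicates by rank. The lists carry no read counts, so the depth behind each value is unknown.

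Which of these genes had a site depended on the list. The pooled list put a site at 1 of the 5 genes, lin-29, against 4.61% of 19973 protein-coding genes (920 genes). The conservative list put a site at 3 genes, lin-29, lin-41 and lep-5, against 4.39% of coding genes (877). Neither replicate's own list had a site in any of the 5 windows, and those lists reached 2.94% of coding genes in replicate 1 and 2.22% in replicate 2. Of the 5 genes 4 are coding, since lep-5 makes a non-coding RNA, and they had 1 site gene in the pooled list and 2 in the conservative list. A site in at least one of the series-wide lists was found at 3 of the 5 genes, against 5.12% of coding genes. No test was made over 5 genes that were chosen with earlier results known, so these shares are a background and not a test.

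Every one of the 5 genes had a candidate with an IDR of 0.05 or below in at least one series-wide ranked list, but not in the same list. In the pooled list 4 genes did (lin-29, mab-10, lep-2 and lep-5), against 7.57% of coding genes. In the conservative list 3 did (lin-29, lin-41 and lep-5), against 7.39%. The windows of the 4 coding genes, 7.36 to 19.7 kb, were longer than the median of 4.03 kb over all coding genes. A site in either list was found at 2 of the 4 coding genes, against 9.39% of the 2970 coding genes with windows of 7 to 20 kb. A candidate with an IDR of 0.05 or below in either list was found at 4 of 4, against 15.9%. Lists that look at the same reads are not independent, so presence in a second list is not a repeat of the measurement.

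**Figure D1:**
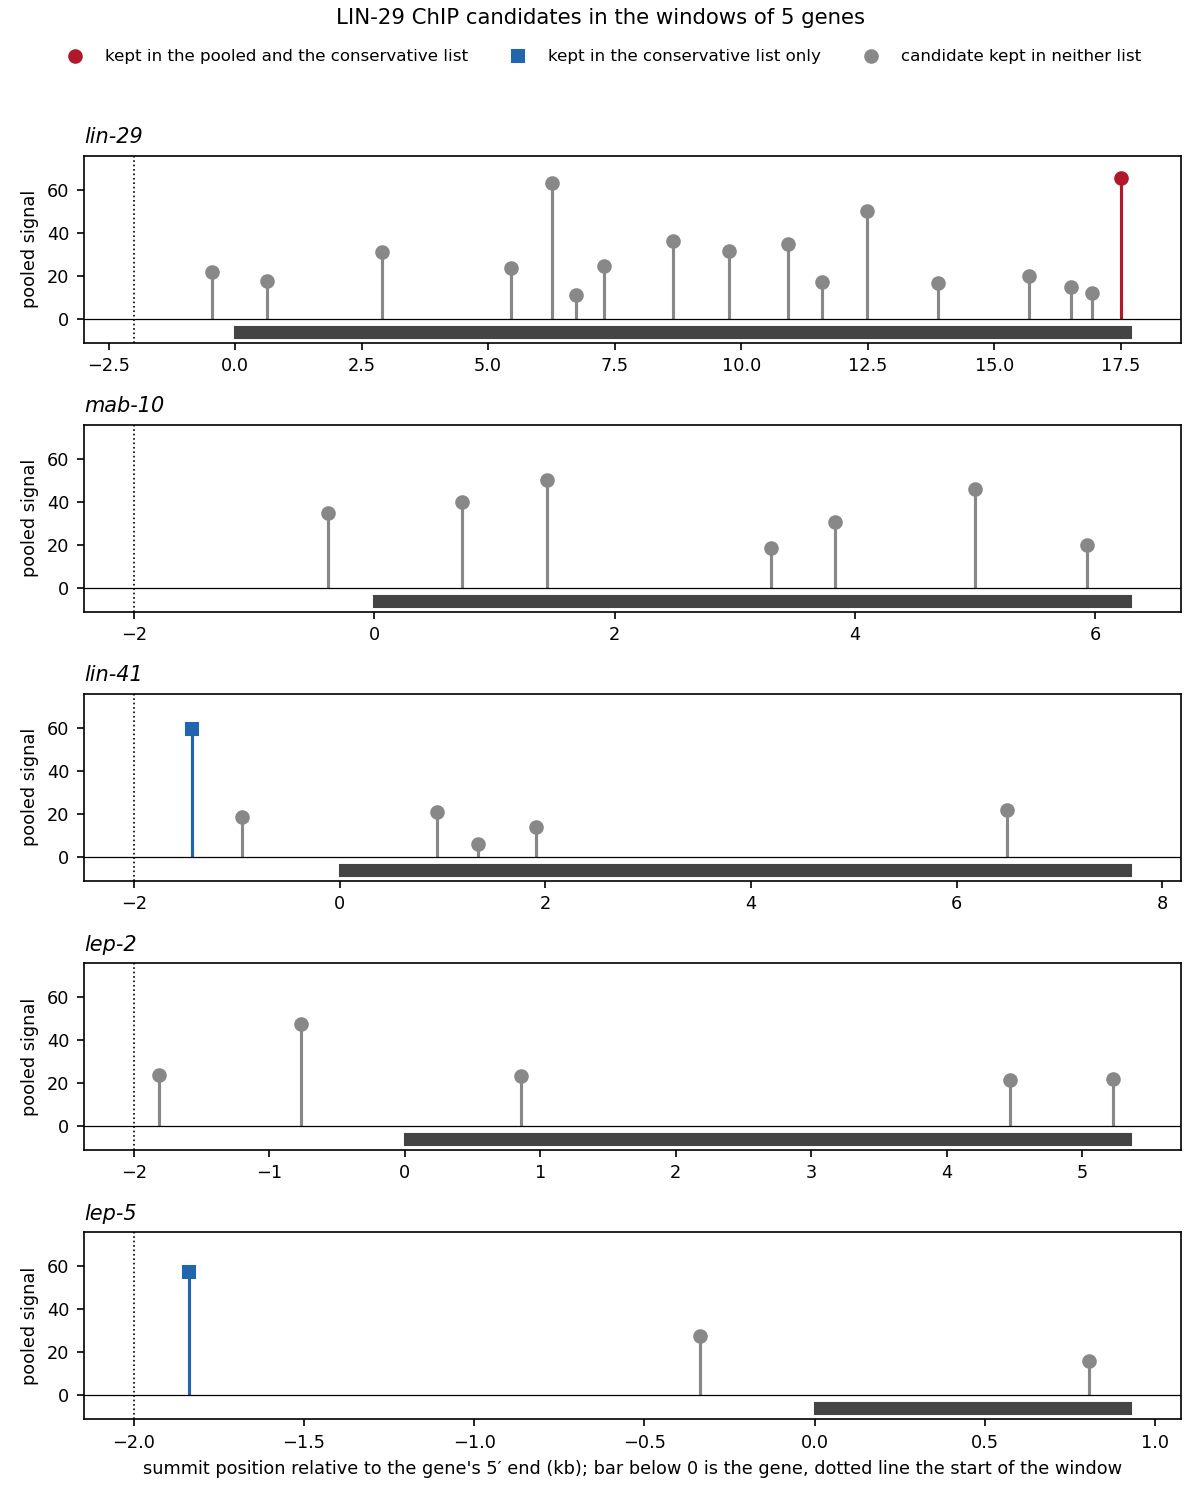
The 5 panels, a gene each, plot the 38 pooled candidates by the position of the summit from the gene's 5′ end (kb, x axis) and the authors' pooled signal (y axis), with red for the lin-29 site kept in both series-wide lists, blue squares for sites kept in the conservative list only and grey for candidates kept in neither. The highest candidate of lin-41, lep-2 and lep-5 lies upstream, that of mab-10 in its first intron and that of lin-29 at the 3′ end.

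The strongest candidate of each gene ranked high among all candidates, although 4 of the 5 were not kept in the pooled list. Pooled signals of these 5 candidates were 65.7 at lin-29, 59.7 at lin-41, 57.6 at lep-5, 50.2 at mab-10 and 47.5 at lep-2. Their ranks ran from 688 at lin-29 to 1871 at lep-2 out of 54915. The median signal was 22.4 over all pooled candidates and 79.9 over the 856 pooled sites, so all 5 lay between the bulk of the candidates and the typical site. Compared gene by gene, the strongest candidate in the window exceeded that of 96.2% of coding genes for lin-29, 95.1% for lin-41, 94.7% for lep-5, 92.4% for mab-10 and 90.9% for lep-2, counting a gene with no candidate as lower. Over all coding genes the median of the strongest signal was 29.9, and 3628 genes had no candidate. Whether the longer windows of the 4 coding genes set these percentages was not tested.

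**Figure D2:**
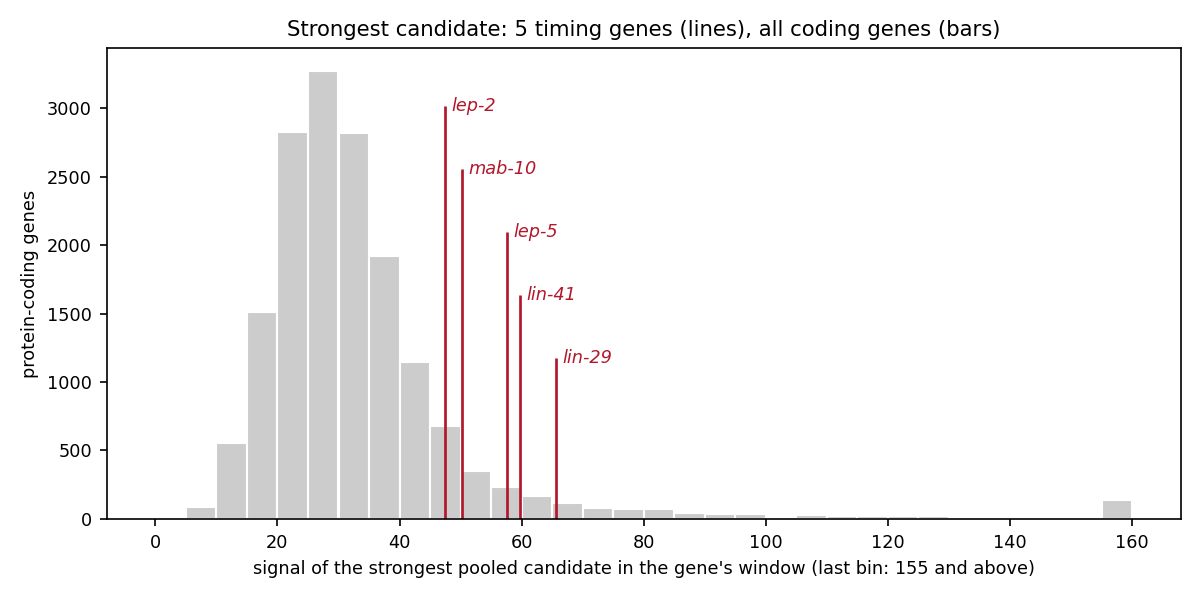
The x axis gives the authors' pooled signal of the strongest candidate in a gene's window and the y axis the number of protein-coding genes in each bin of 5 signal units, with the last bar holding all genes at 155 and above. The 5 red lines, whose height has no meaning, stand at 47.5 for lep-2, 50.2 for mab-10, 57.6 for lep-5, 59.7 for lin-41 and 65.7 for lin-29, right of the main body of the bars and left of the strongest genes.

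The site at the 3′ end of lin-29 stands apart from the others, because this is the gene that carries the tag and the site lies near the end of its transcript. The gene runs from 11917642 to 11935343 on the minus strand of chromosome II, with 3 annotated transcripts, and the site covers 11917687 to 11917976 with its summit at 11917832. That summit is in exon 11 of transcript W03C9.4a.1, in a 3′ UTR of 697 bp, 507 bp past the stop codon that all 3 transcripts share and 190 bp before the 3′ end. It is also 189 bp past the 3′ end of the convergent gene hmg-12, whose model overlaps that of lin-29 by 2 bp. The nearest 5′ end that it could lie upstream of is that of vps-15, a vacuolar protein sorting gene, 1980 bp away. The summit therefore lies inside the lin-29 gene model, just past the end of a converging gene, and not at an annotated start.

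In the pooled list this site had a signal of 65.7 and an IDR of 0.00262, and in the conservative list an IDR of 0.00445. It ranked 635 of 856 pooled sites and 613 of 802 conservative sites by signal, in the weaker part of each list. Replicate 1 gave it a signal of 28.8 (top 4.67%, IDR 0.351) and replicate 2 a signal of 40.2 (top 0.897%, IDR 0.0128). The replicates differed in how high they placed it, and replicate 2's value missed that list's threshold narrowly, but the summits were close, 2 and 6 bp from the pooled summit. Of the 371 pooled candidates with a signal within 10% of its own, 241 (65.0%) were kept as pooled sites, so a candidate of this height was more often kept than not. GC content within 50 bp of the summit was 49.5%, equal to the median of 49.5% over pooled sites. None of the 3 words was found there. Whether the tag insertion bears on this site was not tested. Without it, lin-29 has no site in either series-wide list.

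Next in strength at lin-29 were candidates inside intron 4, the long intron that separates the starts of the long transcripts from that of the short one. The stronger lay at 11928927 to 11929216, 6271 bp into the gene, with a pooled signal of 63.2, close to that of the 3′ UTR site. Its IDR was 0.196 in the pooled list and 0.0170 in the conservative list, so neither kept it. Replicate 1 placed it in the top 2.11% (signal 36) and replicate 2 in the top 7.51% (22.9, IDR 0.873), with summits 1 bp from the pooled one in each. Of the 420 pooled candidates of like signal, 220 (52.4%) were kept, so this one is a strong candidate that fell on the other side of the threshold. Its summit is also 58 bp inside the annotated non-coding RNA Y17G7A.4, and 7634 bp upstream of the short transcript W03C9.4c.1.

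The other, at 11922715 to 11923004, lay 1422 bp upstream of the annotated 5′ end of that short transcript (11921438), whose start inside the gene gives a LIN-29 protein without the first exons. Its pooled signal was 50.2 with an IDR of 0.0690, and 0.162 in the conservative list. Replicate 2 had a candidate there (25.5, top 4.49%, summit 41 bp away) and replicate 1 had none. Nearer that internal start, 423 bp upstream of it, replicate 1 had a candidate of its own (14.6, IDR 0.757) that overlapped no pooled candidate. Farther from the internal start, the pooled candidate 2307 bp upstream had 8.09 in replicate 1 and 8.22 in replicate 2. All 3 values are below the medians of their lists (14.7 in replicate 1 and 13.3 in replicate 2). The pooled candidate nearest the internal start had its summit 10 bp upstream of it, in coding exon 5 of the long transcript. Its signal was 16.9 with an IDR of 0.876, and it overlapped no candidate in either replicate. The word ACGCAG lies within 50 bp of that summit.

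The remaining 14 candidates of lin-29 had pooled signals of 11.3 to 36.2 and pooled IDRs of 0.391 or above. In the conservative list the lowest IDR among them was 0.250. Most lay in introns. The stretch before the first exon was weakly marked, with 1 pooled candidate by summit, 462 bp upstream of the 5′ end. Its signal was 21.8 pooled, 12.5 in replicate 1 and 15.3 in replicate 2 (pooled IDR 0.631). A region of 4 merged peaks reached across the 5′ end, with its strongest summit 634 bp into the gene (17.6 pooled). Replicate 2 also had candidates 95 bp (10.8) and 1509 bp (15.2) upstream. In all, lin-29 had 17 candidates in 19.7 kb, or 0.863 per kb, against a median of 0.558 per kb and an upper quartile of 0.825 per kb over coding genes. Of those, 8 overlapped a candidate in both replicates' ranked lists, 7 in one and 2 in neither, and 4 had summits within 100 bp in both. The nearest pooled site outside the window lay 25489 bp upstream of the 5′ end (signal 149).

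The cofactor gene mab-10 had no site in any thresholded list, and its candidates spread over the gene without one that stood far above the rest. The gene lies on chromosome II from 10528084 to 10534380, plus strand, and held 7 pooled candidates in 8.3 kb (0.844 per kb). Its strongest, in intron 1 at 10529379 to 10529668, had a pooled signal of 50.2. The summit is 1440 bp into the longest transcript and 811 bp upstream of the 5′ end of the shorter transcript R166.1a.2, so it may be read as intronic or as upstream depending on the transcript. It also lies inside the annotated non-coding RNAs R166.8 and R166.9. GC content there was 55.4%, and GAGAGA and AAAAAA both lie within 50 bp of the summit, at 33 and 41 bp.

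For this candidate the series-wide lists differed widely, with an IDR of 0.0230 in the pooled list and 0.744 in the conservative list at the same signal. Replicate 1 gave it 26.7 (top 6.41%, IDR 0.0172) and replicate 2 gave it 25.4 (top 4.59%, IDR 0.229). The ranks were alike, but the summits were 126 and 134 bp from the pooled summit on opposite sides, 260 bp apart. The lists therefore do not place the replicates' peaks at the same point. The pooled region merges 2 peaks and runs to 10529870, so whether the replicates' values belong to the same peak is unknown. Only 32 of the 1217 pooled candidates of like signal (2.63%) were kept as sites, so a candidate of this height was rarely kept.

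Other mab-10 candidates were weaker or unequal between replicates. One in intron 8, with its summit 4996 bp into the gene, had 46.3 pooled (IDR 0.224), with 30.2 in replicate 1 (top 3.91%) and 17.4 in replicate 2 (top 23.4%). A further one in intron 1, 733 bp in, had 40.3 pooled (IDR 0.366), with 25.0 in replicate 1 (top 8.39%) and 9.23 in replicate 2 (top 83.6%). The one nearest the annotated start, 386 bp upstream, had 35.0 pooled, with an IDR of 0.0593 in the pooled list and 0.695 in the conservative list, 22.9 in replicate 1 (top 12%, summit 39 bp away) and 11.4 in replicate 2 (top 66.4%, summit 236 bp away). The region of that upstream candidate merges 4 peaks, and replicate 2's summit lay outside the strongest of them. By overlap, all 3 candidates ranked higher in replicate 1 than in replicate 2. Replicate 1's own strongest candidate at the gene lay in coding exon 6, with a signal of 34.9, and had no counterpart in replicate 2. The nearest site was 7687 bp beyond the 3′ end of the gene (signal 176 pooled).

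Of the genes that act before lin-29, the repressor gene lin-41 had a single strong candidate, upstream of its start. The gene lies on chromosome I from 9334800 to 9342496, minus strand, and the candidate at 9343783 to 9344072 has its summit 1432 bp upstream of the 5′ end of 2 of its 4 transcripts and 2009 bp upstream of the other two. Its pooled signal was 59.7, rank 899 of 54915. The pooled list gave an IDR of 0.0788 and did not keep it. The conservative list gave 0.00711 and kept it, at rank 721 of 802 by signal, among the weakest sites of that list. Replicate 1 had a signal of 29.6 (top 4.17%, IDR 0.830) and replicate 2 a signal of 30.5 (top 2.11%, IDR 0.118), with summits 16 and 33 bp from the pooled one. Both replicates therefore held a peak at this place in the upper 5% of their candidates, and neither replicate's own IDR came near 0.01.

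Of pooled candidates with a signal like that of the lin-41 candidate, 187 of 527 (35.5%) were kept in the pooled list, and 162 of 527 (30.7%) in the conservative list. GC content around the summit was 59.4%, the highest of the 5 strongest candidates, and none of the 3 words was found. The other 5 candidates of lin-41 were far weaker, with pooled signals of 6.19 to 22.1. The strongest of those, in coding exons 16 and 3, had signals of 22.1 and 21.2 and appeared only in replicate 2, at 13.1 and 14.9. The body of lin-41 thus had candidates at the level of the bulk of the list, whose median was 22.4. In the conservative list the nearest further site lay 6279 bp past the gene's 3′ end (signal 62.8), and in the pooled list 40506 bp upstream (136).

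At lep-2, the Makorin gene, the strongest candidate lay in the interval that it shares with a divergent neighbour. The gene is on chromosome IV from 992283 to 997644, plus strand, and the candidate at 991370 to 991659 has its summit 768 bp upstream of lep-2 and 1063 bp upstream of egrh-2, a gene named as a homologue of the EGR family of zinc finger factors. The lists do not tell which of the neighbours, if either, the peak belongs to. Its pooled signal was 47.5 with an IDR of 0.0317, and 0.248 in the conservative list, so neither kept it. Replicate 1 had a signal of 28.1 (top 5.20%, summit 4 bp away), whereas replicate 2 had 15.8 (top 32.3%, summit 126 bp away). In replicate 2 the strongest candidate of lep-2 exceeded that of 54.0% of coding genes, against 89.6% in replicate 1.

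Of the 36-base words in this lep-2 candidate 75.7% occur once in the genome, against 100% at the strongest candidates of the other genes, and whether the repeated sequence bears on the signal was not tested. Other candidates of lep-2 were weak. One 14 bp upstream of the egrh-2 start, at the far edge of the window, had 23.9 pooled (IDR 0.876) and 14.9 in replicate 2 alone. Another in intron 4 had 23.6 pooled, 12.4 in replicate 1 (summit 62 bp away) and 11.1 in replicate 2 (139 bp away). The remaining 2, in the second part of the gene, had 21.3 and 22.0 and no counterpart in either replicate. The nearest pooled site was 75379 bp downstream of the 5′ end (signal 39.0).

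The non-coding RNA gene lep-5 had the candidate that the replicates placed most alike among the strongest of the 5 genes, and after the lin-29 3′ UTR site it had the lowest IDR in the pooled list, close to its threshold. The gene, 930 bp on the minus strand of the X chromosome from 12652591 to 12653520, had 3 candidates in a window of 2.93 kb, or 1.02 per kb, of which 2 had summits within 100 bp in both replicates. The strongest lay at 12655212 to 12655501, 1837 bp upstream of the 5′ end and inside the small annotated non-coding RNAs C02B4.6 and C02B4.9. It had a pooled signal of 57.6. The pooled IDR was 0.0106, just above the threshold of 0.01, and the conservative IDR was 0.00717, which kept it at rank 750 of 802 sites. Replicate 1 had 31.9 (top 3.17%, IDR 0.0953) and replicate 2 had 28.0 (top 2.97%, IDR 0.0569), with summits 23 bp from the pooled one in each. Of pooled candidates of like signal, 150 of 607 (24.7%) were kept in the pooled list and 126 of 608 (20.7%) in the conservative list.

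The lep-5 candidate is the only one of the 5 strongest that carries ACGCAG, shown in capitals in its sequence above, and GC content there was 56.4%. The others in its window were at the level of the bulk: 27.7 pooled at 336 bp upstream (11.6 in replicate 1, 16.9 in replicate 2) and 15.9 pooled in exon 3. At exon 3 the overlapping replicate summits lay 190 and 232 bp from the pooled summit, on opposite sides, and that of replicate 1 was outside the window. Just outside the window lay a site kept in both series-wide lists, at 12656685 to 12656974, 3310 bp upstream of lep-5. Its signal was 60.5, with an IDR of 0.00700 in the pooled list and 0.00371 in the conservative list. The replicates had 34.4 and 31.3 there, and neither replicate's own list kept it. Its GC content was 65.3% and it held none of the 3 words. The 5′ end of the coding gene C02B4.3 was nearer to this site, at 3017 bp, than that of lep-5. Further out, beyond the coding gene C02B4.3, sites lay 7751 bp upstream of lep-5 (77.6 pooled, kept also in replicate 1's list), and 11682 bp upstream inside the nuclear receptor gene nhr-17 (103 pooled, kept in both replicates' lists). These farther sites also lie nearer to other genes than to lep-5.

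**Figure D3:**
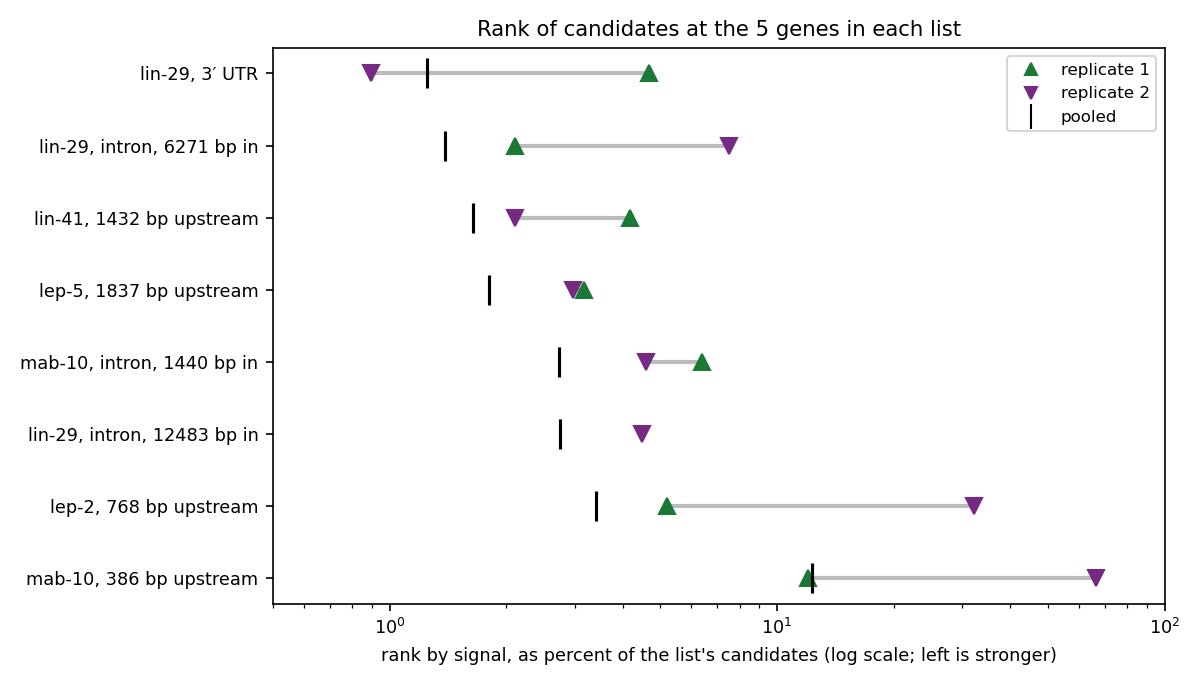
The x axis (log scale) gives the rank by signal as a percent of all candidates in a list, so that points further left are stronger, for the 8 candidates with an IDR of 0.1 or below in a series-wide list. Upward triangles are replicate 1, downward triangles replicate 2 and black bars the pooled list. The replicates lie close together at lep-5 (3.17 and 2.97%). They lie far apart at the lep-2 upstream candidate (5.20 and 32.3%) and the mab-10 upstream candidate (12 and 66.4%), where the replicate 2 summits lie 126 and 236 bp from the pooled ones. The mab-10 upstream region merges 4 peaks, and the replicate 2 summit lies outside the strongest. One candidate in intron 4 of lin-29 has no replicate 1 point.

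Across the 5 genes, the replicates thus gave different orders. By the strongest candidate in each window, replicate 1 had lin-29 (36), mab-10 (34.9), lep-5 (31.9), lin-41 (29.6) and lep-2 (28.1), and replicate 2 had lin-29 (40.2), lin-41 (30.5), lep-5 (28.0), mab-10 (25.4) and lep-2 (15.8). The gene lin-29 led and lep-2 came last in each, while mab-10 ranked above lin-41 and lep-5 in replicate 1 and below both in replicate 2. At lin-29 and mab-10 these maxima are not the same candidate in both replicates. Of all 38 pooled candidates, 18 overlapped a candidate in both replicates' ranked lists, 16 in one and 4 in neither, but 9 had summits within 100 bp in both. The strongest pooled candidate of each gene overlapped one in both replicates in 5 of 5 genes, and with summits within 100 bp in 3, the exceptions being mab-10 and lep-2.

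The calls turned on which series-wide list was read. Of the 38 candidates 34 were also in the ranked list behind the conservative list, all with the same signal, while the IDR differed. The lists gave lin-41 0.0788 pooled and 0.00711 conservative, and mab-10 0.0230 and 0.744. Of the 906 pooled thresholded peaks, 552 stood in the conservative ranked list with the same place, signal and score. The score stops at 1000, so an equal score there need not mean an equal IDR. What inputs each list compared is not given in the sources used here. Of the 856 pooled sites, 693 overlapped one of the 802 conservative sites, so lists that differ at 2 of these 5 genes were otherwise largely shared.

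**Figure D4:**
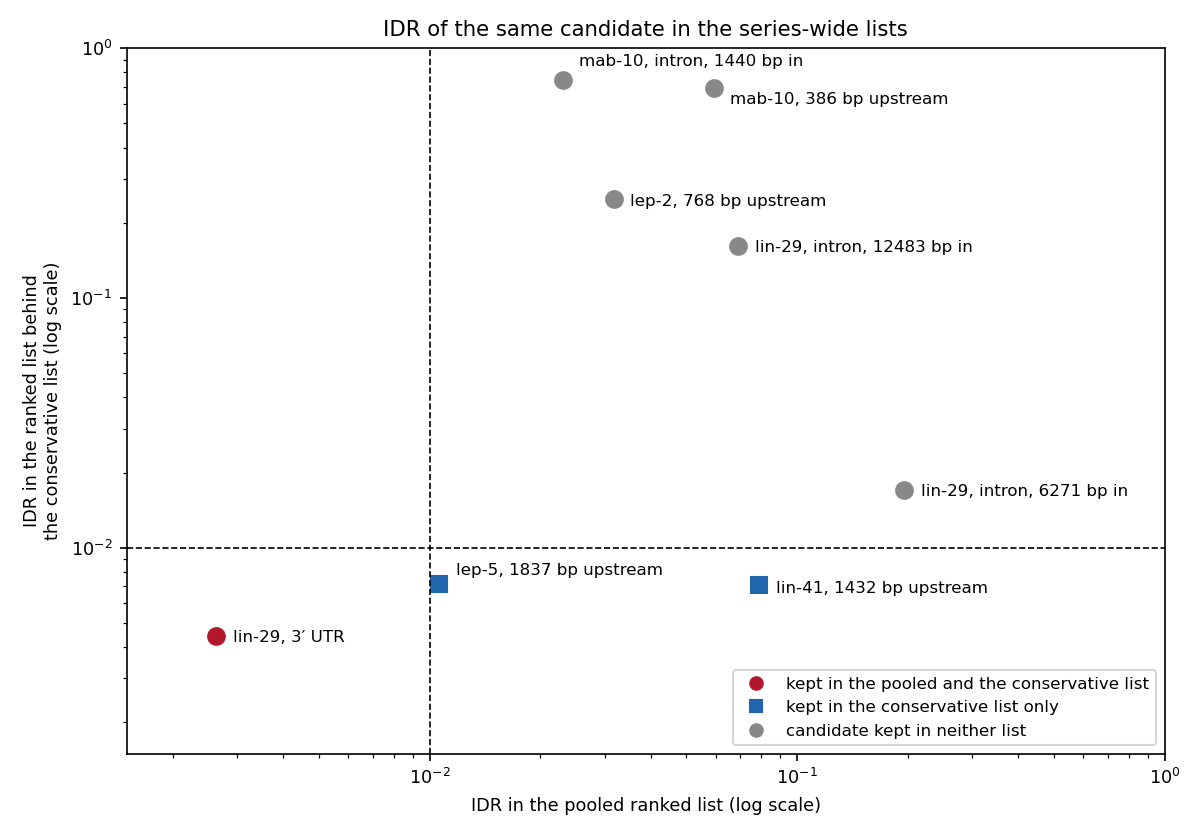
Both axes (log scale) give the IDR of the same candidate, in the pooled ranked list (x) and in the ranked list behind the conservative list (y), for the 8 candidates with an IDR of 0.1 or below in either, with dashed lines at 0.01. The lin-29 3′ UTR site is below both lines, lep-5 and lin-41 are below the horizontal line alone, and the mab-10 intron candidate is at 0.0230 on the x axis and 0.744 on the y axis.

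In what the choice of genes did not use, the candidates were mixed. Of the 38, 21 lay in introns, 8 upstream, 6 in coding exons, 2 in 3′ UTRs and 1 in an exon of a non-coding RNA. The strongest candidate of each gene had a GC content of 48.5 to 59.4% within 50 bp, against medians of 49.5% over pooled sites and 40.6% over all pooled candidates. The word ACGCAG was within 50 bp of 2 of the 38 summits (5.26%), against 17.2% of the 856 pooled sites and 3.18% of the 54915 pooled candidates. GAGAGA was near 7 (18.4%), against 22.0% of sites and 7.14% of candidates, and AAAAAA near 10 (26.3%), against 24.3% and 30.9%.

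Set in its pathway, the site at lin-29 was among the weaker ones. Of 29 heterochronic genes, 10 had a site in the pooled list (against 4.61% of coding genes) and 12 in the conservative list (4.39%), where the further 2 were lin-41 and lep-5. Each replicate's own list had a site at 5 (2.94% of coding genes in replicate 1 and 2.22% in replicate 2). The 29 include microRNA genes and genes with long windows, and were chosen with these results known. In the pooled list the strongest sites belonged to nhl-2 (233), a TRIM-NHL gene that aids microRNA activity, and puf-9 (194), a Pumilio-family gene, and both were kept in both replicates' lists. Sites at ain-1 (119), lin-42 (109.8), kin-20 (101), lin-46 (97.3), lin-4 (72.9) and alg-1 (67.3) were also above that of lin-29 (65.7), and in that list only sea-2 (65.4) was below. Of the 4 genes whose mRNAs LIN-41 is known to repress, lin-29 had a site and mab-10, mab-3 and dmd-3 had none. The strongest candidates of mab-3 and dmd-3, factors of male development, had signals of 36.1 and 31.6 with pooled IDRs of 0.490 and 0.701. LIN-41's mRNA targets other than lin-29 thus had no site in either series-wide list.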

How the data were processed

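LIN-29 ChIP-seq of 2 biological replicates was analysed from 8 peak lists, which per the labels use ce11. The series-wide lists drew on alignments of both replicates, per the manifests. No aligner or peak caller is named in the sources used here. In the deposited lists the authors' score reaches 1000 and falls as the irreproducible discovery rate rises, and ranked lists also hold the authors' −log10 IDR. The deposited signal is the peak caller's own value, made by the authors, of unstated scaling. In the ranked lists 8 further columns were not used. Read counts were not analysed here, so depth is unknown and no interval was computed.

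Within a list, peaks overlapping by 1 bp or more were merged, keeping the strongest peak's values (Python 3.11.15, pandas 2.3.3). Gene models came from Ensembl release 115 and sequence from RefSeq, both of WBcel235, and 1-based coordinates are given. Assignment to windows was checked with made-up input of known answer. A pooled candidate was matched to another list's by overlap. Words were sought within 50 bp of a summit on both strands. Named were candidates with an IDR of 0.1 or below and the strongest 3 of each gene, of other pathway genes those with a pooled site, and genes overlapping or adjoining a candidate. Genes whose mRNAs LIN-41 represses were named as a list. The members, lists, words and rules were chosen with earlier results of these data known. There is 1 group, so no comparison between conditions and no test was made, and spread between replicates may be technical or biological.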

Additional observations from a re-analysis of the deposited data

How the results depend on the processing

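The number of the 5 genes with a site, 1 in the pooled list, was 3 in the conservative list, 0 to 0 with a single replicate's own list, 4 at an IDR of 0.05 or below, 2 with the window from 5000 bp upstream and 0 without the lin-29 3′ UTR site. Alternatives chosen after seeing the data gave, in the conservative list, 3 with the window from 5000 bp, 3 at an IDR of 0.05 or below and 2 without the lin-29 3′ UTR site. The share of coding genes with a site, 4.61%, was 2.22 to 2.94% with a single replicate, 7.57% at an IDR of 0.05 or below and 7.39% at that IDR in the conservative list. Strongest candidates matched in both replicates numbered 5, and 3 with summits within 100 bp. With that limit, chosen for all candidates after seeing the data, 9 of the 38 matched in both replicates instead of 18. The total of 38 candidates ran from 30 to 52 over the alternatives run, and mab-10 and lep-5 had 11 and 5 without merging, and lep-2 had 2 in replicate 1 alone. A single replicate's own list is a separate call of its reads with fewer sites, so leaving out a replicate also changes the list. No paired analysis was possible because there is 1 group. Limits are the unknown depth and signal scaling, the absence of an untagged library here, and 2 replicates.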
